A study of Mus musculus with 12 samples.

Results

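The S100 genes described here are 8 mouse genes, S100a1, S100a4, S100a6, S100a8, S100a9, S100a10, S100a11 and S100a13, taken by symbol from a table of 24107 genes. All 8 were among the 11462 genes tested, which had at least 1 FPKM (fragments per kilobase of gene, scaled by a size factor for each library) in at least 3 libraries. RNA was measured in 12 libraries from C57BL/6 mice, in 4 groups of 3. Control megakaryocyte-erythroid progenitors (control MEP, the sorted marrow cells that give rise to platelets and red cells) and unselected whole bone marrow (control marrow) came from mice labelled wild type. Leukemic MEP and GFP+ marrow cells carried the label Prdm16s and came from leukemic recipient mice, so the groups cannot tell apart Prdm16s, the leukemia and transfer into a recipient. The GFP+ cells were selected and the control marrow was not. Whether replicate libraries stem from different mice is not stated in the labels, so each p-value rests on library-to-library spread, which may be technical.

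S100 proteins are small proteins that change shape when calcium binds their EF-hand motifs and then bind other proteins. S100a8 and S100a9 pair to form calprotectin, the most abundant cytosolic protein of neutrophils, which is also released as an alarm signal. S100a4 and S100a6 bind cytoskeletal and annexin partners and are known from motile and growing cells, S100a10 forms a complex with annexin A2 at the membrane, S100a11 binds annexin A1, S100a1 is best known from muscle, and S100a13 takes part in the release of proteins that lack a signal peptide.

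The FPKM values rest on 6717971 to 9708624 reads in 10 libraries, on 1149716 in GFP+ marrow replicate 2 and on 571690 in leukemic MEP replicate 3. Prdm16 was at 0.363 to 0.957 FPKM in the 6 control libraries and 6.35 to 15.3 in the 6 Prdm16s libraries, although the table does not separate Prdm16s from other reads of the gene. The red cell lineage factor genes Gata1 and Klf1 lay between 289 and 335 and between 585 and 852 FPKM in control MEP, above each control marrow library. Markers of the platelet lineage did not lie above control marrow. Itga2b was at 1.05, 3.44 and 0.673 FPKM in control MEP and at 7.61 or more in control marrow. The 8 markers of the megakaryocyte list summed to 9.75 to 124 FPKM in control MEP and to 141 to 210 in control marrow. Leukemic MEP replicate 3 stood apart from the other leukemic MEP libraries: its Gata1 was at 37.7 FPKM and its Mpo, the peroxidase gene of neutrophil granules, at 7897, while replicates 1 and 2 had 242 and 210 FPKM of Gata1 and 167 and 150 of Mpo. The tests of the members that use this library, and the named calls in leukemic against control MEP, are given with and without it. Xist and the Y-linked gene Ddx3y, chosen after their values were seen, also split the libraries: replicates 1 and 2 of both Prdm16s groups had Xist at 39.2 to 57.1 FPKM and Ddx3y at 0.392 or below, and the other 8 libraries had Xist at 0.0904 or below and Ddx3y at 10.3 to 27.6.

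The 8 genes lie on chromosome 3 (GRCm38) in 2 blocks. From S100a1 (minus strand, 90511034 to 90514330) the first block runs through S100a13 (plus, 90514233 to 90524581), S100a4 (plus, 90603770 to 90606045), S100a6 (plus, 90612894 to 90614414) and S100a8 (plus, 90669071 to 90670034) to S100a9 (minus, 90692630 to 90695721), a span of 185 kb. S100a11 (plus, 93520496 to 93526288) and S100a10 (plus, 93555117 to 93564645) form the second block, which spans 44.1 kb and lies 2825 kb further along the chromosome. S100a1 and S100a13 start back to back, and their RefSeq spans overlap. Smart-seq2 does not mark strand, so reads from ends that overlap could not be told apart. In the GENCODE annotation, however, the exons of these genes do not overlap. The exons of S100a4 overlap those of the gene model Gm42674 in the GENCODE annotation.

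The promoter sequences of S100a8 and S100a9, whose levels set the family's total, and of S100a6, which had the smallest p in MEP, are shown here, from 250 bases before the RefSeq start to 10 bases after it (RefSeq, GRCm38.p6), each in the direction of its gene. They are S100a8 (chr3:90668821-90669081, plus strand), S100a9 (chr3:90695711-90695971, minus) and S100a6 (chr3:90612644-90612904, plus). Capitals mark the letters TATAAA, the core of a TATA box.
S100a8: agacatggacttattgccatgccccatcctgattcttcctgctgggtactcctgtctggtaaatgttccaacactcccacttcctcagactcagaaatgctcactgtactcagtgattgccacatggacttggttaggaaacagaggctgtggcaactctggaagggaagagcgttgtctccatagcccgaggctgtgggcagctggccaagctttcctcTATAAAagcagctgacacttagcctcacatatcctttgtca
S100a9: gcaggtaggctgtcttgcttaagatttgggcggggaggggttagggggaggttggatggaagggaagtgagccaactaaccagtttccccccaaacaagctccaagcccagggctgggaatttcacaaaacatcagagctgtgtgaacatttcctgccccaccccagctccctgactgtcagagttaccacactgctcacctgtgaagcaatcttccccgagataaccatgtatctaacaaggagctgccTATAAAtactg
S100a6: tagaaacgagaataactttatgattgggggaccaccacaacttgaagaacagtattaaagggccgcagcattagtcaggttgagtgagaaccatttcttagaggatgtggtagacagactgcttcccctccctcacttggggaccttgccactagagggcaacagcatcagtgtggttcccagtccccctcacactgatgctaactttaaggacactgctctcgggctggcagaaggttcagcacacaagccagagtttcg

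The letters TATAAA, searched on both strands, were found in 13.6% of 32851 RefSeq promoter windows of 300 bases (250 before to 50 after the start). Of the 6 members whose window was searched, S100a8 and S100a9 held them, and S100a1, S100a6, S100a11 and S100a13 did not. Counting the start as position 0, the motif began at -30 in S100a8 and at 0 in S100a9. The letters AGAGGAA, a form of the site bound by ETS factors such as PU.1, were in 10.4% of windows and in those of S100a8 (at -36, where its reverse complement overlaps the first base of the TATAAA) and S100a11 (at -154). TTGCNNAA, a form of the C/EBP site, was in 10.8% of windows and among these 6 members in S100a9 alone (at -236). AGATAA, a form of the site bound by Gata1, was in 11.2% of windows and in S100a9 (at -30) and S100a11 (at -248). GGGCGG, a GC box, was in 35.7% of windows, once in S100a9 (at -223) and at -64, -52 and -24 in S100a11. TGANTCA, an AP-1 site, was in 7.81% of windows and among these 6 members in S100a11 alone (at -136 and -38). A match to these letters is a description of the sequence and does not show that a factor binds there.

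The stretch between S100a1 and S100a13 is shown because their levels moved together over the libraries. It runs from 10 bases inside S100a1 to 10 bases inside S100a13 (chr3:90514320-90514445, plus strand), with the starts of the RefSeq promoter windows, 90514330 for S100a1 and 90514435 for S100a13. Capitals mark the 104 bases between these 2 starts, which hold none of the letters TATAAA. Other annotated starts differ: the RefSeq span of S100a13 begins at 90514233, so that it covers the whole stretch, and the GENCODE start of S100a1 is at 90514392.
S100a1-S100a13: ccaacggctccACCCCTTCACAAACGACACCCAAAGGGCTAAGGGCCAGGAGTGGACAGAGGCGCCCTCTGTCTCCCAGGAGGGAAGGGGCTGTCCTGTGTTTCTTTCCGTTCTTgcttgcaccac

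S100a8 and S100a9, the calprotectin genes, were the most abundant members in marrow and among the least settled in MEP. S100a8 stood at 10.7, 160 and 69.1 FPKM in control MEP 1, 2 and 3, at 348, 1444 and 38572 in leukemic MEP, at 29100, 46268 and 43974 in control marrow and at 69537, 49841 and 66431 in GFP+ marrow. Each leukemic MEP library lay above each control MEP library, and each GFP+ marrow library above each control marrow library. In 7 of the 12 libraries (the 6 marrow libraries and leukemic MEP 3), no gene of the table had a higher FPKM than S100a8. S100a9 stood at 2.25, 48.3 and 13.6 FPKM in control MEP, at 57.9, 169 and 19797 in leukemic MEP, at 8720, 10806 and 9359 in control marrow and at 13080, 7932 and 16200 in GFP+ marrow. Its leukemic MEP libraries lay above its control MEP libraries, and its marrow groups overlapped.

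Differences between groups were tested with limma on log2(FPKM + 1), a scale that understates the change of low genes, and called at a Benjamini-Hochberg adjusted p under 0.05 over all 11462 genes. S100a8 rose by 5.72 ± 1.35 (log2 difference ± SE) in leukemic against control MEP (limma, adjusted p = 0.0088), and by 3.80 without leukemic MEP 3 (adjusted p = 0.00593). With the 2 groups fitted alone its adjusted p was 0.0779. S100a9 rose by 5.46 ± 1.63 (adjusted p = 0.0279), and by 2.91 without that library (adjusted p = 0.0203). The call of S100a9 was lost in 5 of 20 alternatives, with adjusted p-values of 0.110 without control MEP 1, 0.0716 without control MEP 3, 0.0679 without the filter on low values, 0.141 with the 2 groups alone and 0.121 with limma's voom on reads. In marrow neither gene passed: S100a8 differed by 0.65 ± 1.35 (adjusted p = 0.821) and S100a9 by 0.31 ± 1.63 (adjusted p = 0.938). These SEs come from a spread shared by all 4 groups, so the widely scattered MEP libraries enter them. With the 2 marrow groups fitted alone the limma adjusted p of S100a8 was 0.227, which did not pass either.

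**Figure D1:**
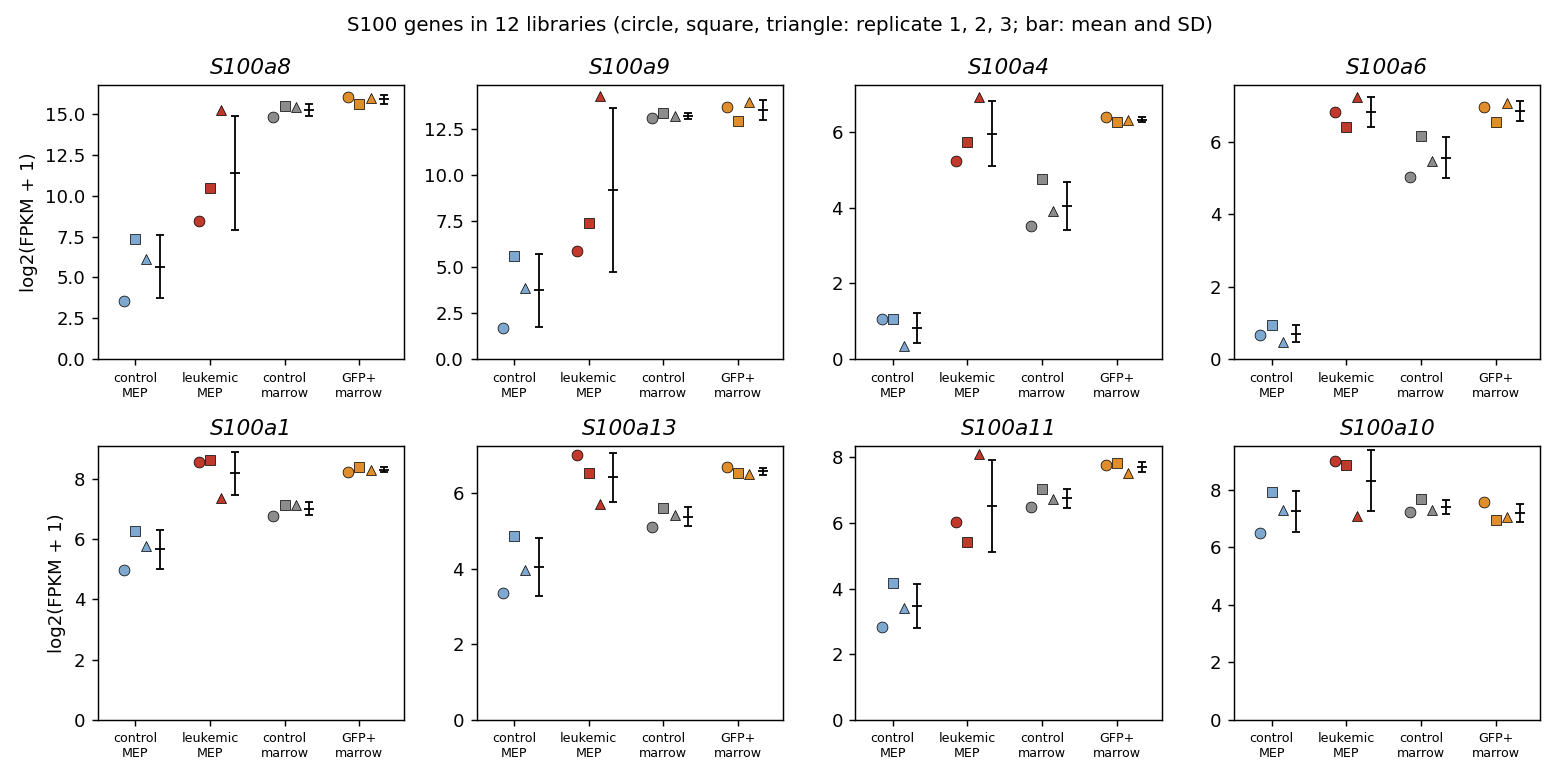
Levels of the 8 S100 genes as log2(FPKM + 1) (vertical axes) in the 4 groups; each point is a library, with circle, square and triangle for replicates 1, 2 and 3, and bars give the mean and SD of 3 libraries. Leukemic MEP 3 (red triangle) lies near the marrow libraries for S100a8 (38572 FPKM) and S100a9 (19797 FPKM), while S100a4 and S100a6 are high in all 3 leukemic MEP libraries.

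In MEP the neutrophil markers moved with S100a8 and S100a9. The 12 markers of the neutrophil list (granule genes such as Mpo, Elane, Ltf and Camp, and the surface gene Ly6g) summed to 10.3 to 163 FPKM in control MEP, 322 to 34709 in leukemic MEP, 31867 to 38058 in control marrow and 22485 to 38403 in GFP+ marrow, and none of the 12 was at 0 in a whole group. Ly6g, which marks neutrophils, was at 0, 0 and 0.152 FPKM in control MEP and at 0.487, 0.133 and 158 in leukemic MEP. As a percentage of the GFP+ marrow mean, leukemic MEP 1, 2 and 3 held 0.561, 2.33 and 62.3% for S100a8, 0.467, 1.36 and 160% for S100a9, and 1.07, 1.37 and 116% for the summed neutrophil list. In control MEP 1, 2 and 3, S100a8 was at 0.0269, 0.402 and 0.174% of the control marrow mean and the neutrophil list at 0.0289, 0.459 and 0.181%. S100a8, S100a9 and the neutrophil list thus had the same order of libraries in control MEP. In marrow the summed list did not move with them: its median was 36736 FPKM in control and 29072 in GFP+ libraries, while S100a8 was higher in each GFP+ library. Control marrow 2 had the lowest list sum of its group (31867 FPKM) and the highest S100a8 and S100a9. Single members of the list differed. Mpo was at 5570 to 6951 FPKM in control and 7922 to 9221 in GFP+ libraries, and Elane at 3834 to 5391 and 8194 to 11169. Both were thus higher in each GFP+ library, as S100a8 was, while Ly6g overlapped (67.2 to 77.3 and 45.2 to 152 FPKM). The part of neutrophil RNA in the MEP levels of these genes was not tested, and in such sorted pools fewer cells of a type and less RNA per cell cannot be told apart.

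The ratio of S100a8 to S100a9, whose proteins pair, was steadier than either level. S100a8 had 4.74, 3.31 and 5.08 times the FPKM of S100a9 in control MEP, 6.00, 8.54 and 1.95 times in leukemic MEP, 3.34, 4.28 and 4.70 times in control marrow and 5.32, 6.28 and 4.10 times in GFP+ marrow. The ratio thus ranged 4.39-fold over the 12 libraries while S100a8 ranged 6510-fold and S100a9 8784-fold, and leukemic MEP held both the highest and the lowest ratio. The log2 ratio of (FPKM + 1) was 2.20 ± 1.11 in leukemic and 1.94 ± 0.29 in control MEP (SD, n = 3; difference 0.27, 2-sided exact permutation p = 0.8). Without leukemic MEP 3 the difference was 0.89 (exact permutation p = 0.1, the smallest that 2 libraries against 3 can give). In marrow it was 2.37 ± 0.31 in GFP+ and 2.02 ± 0.26 in control libraries (SD, n = 3; difference 0.34, 2-sided exact permutation p = 0.3). With 3 libraries against 3, the smallest such p is 0.1.

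S100a4 and S100a6 were close to absent in control MEP and present in all other groups. S100a6, also called calcyclin, was at 0.597, 0.935 and 0.389 FPKM in control MEP (4, 5 and 2 reads), at 112, 83.4 and 149 in leukemic MEP, at 31.7, 70.3 and 43.6 in control marrow and at 124, 91.5 and 132 in GFP+ marrow. Its leukemic MEP and GFP+ marrow libraries lay above both control groups without overlap. S100a4, also called metastasin, was at 1.08, 1.08 and 0.28 FPKM in control MEP (5, 4 and 1 reads), at 36.9, 52.5 and 121 in leukemic MEP, at 10.5, 26.0 and 14 in control marrow and at 83.7, 76.1 and 79.4 in GFP+ marrow. Here too the Prdm16s groups lay above their control groups without overlap.

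S100a6 rose by 6.11 ± 0.31 in leukemic against control MEP (limma, adjusted p = 3.1e-07), the smallest p of the 8 members in that comparison, and S100a4 by 5.15 ± 0.42 (adjusted p = 6.05e-06). The means differed 179-fold for S100a6 and 86.3-fold for S100a4, and with a pseudocount of 0.1 the log2 differences were 7.30 and 6.26, since 11 and 10 reads in all lie behind the control MEP levels. Both calls were kept in all 20 alternatives, and without leukemic MEP 3 the differences were 5.91 (adjusted p = 2.13e-07) and 4.67 (adjusted p = 1.78e-06). In marrow S100a4 rose by 2.27 ± 0.42 (adjusted p = 0.00477, called in all 20 alternatives). S100a6 rose there by 1.30 ± 0.31 (adjusted p = 0.0203), a call lost without control marrow 1 (adjusted p = 0.102), control marrow 3 (0.0898), GFP+ marrow 1 (0.0631) or GFP+ marrow 3 (0.0652). Replicate 3 of leukemic MEP and of GFP+ marrow, the Prdm16s libraries with control-like Xist and Ddx3y, had S100a6 at 149 and 132 FPKM and S100a4 at 121 and 79.4, above every control library. In leukemic MEP this replicate was instead the lowest for S100a1, S100a13 and S100a10 (163, 51.5 and 134 FPKM). It also differed in reads and neutrophil markers, and the part of the Xist and Ddx3y split in these levels was not tested.

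The rises of S100a4 and S100a6 were larger in MEP than in marrow by the test of the difference itself. By arithmetic, this quantity is leukemic MEP minus GFP+ marrow, less control MEP minus control marrow. The first part was -0.04 for S100a6 and -0.36 for S100a4, and the second was -4.85 and -3.24. The rise of S100a6 was larger by 4.82 ± 0.43 (limma interaction, adjusted p = 0.000172, called in all 19 alternatives) and that of S100a4 by 2.87 ± 0.59 (adjusted p = 0.0154). The S100a4 difference was lost without control MEP 3 (adjusted p = 0.0533), the library with 1 read, and with quantile normalization (adjusted p = 0.051). In the whole family 2 of 8 members passed this test in that direction, against 4.52% of all tested genes. The other 6 did not, with differences from 1.16 (S100a13, adjusted p = 0.282) to 5.15 (S100a9, adjusted p = 0.272). Without leukemic MEP 3 the difference was 4.61 for S100a6 (adjusted p = 6.42e-05) and 2.40 for S100a4 (adjusted p = 0.00606), S100a1 (1.64, adjusted p = 0.0216) and S100a10 (1.90, adjusted p = 0.021) passed as well, and the remaining 4 had adjusted p-values from 0.0659 to 0.189.

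S100a4 and S100a6 were also set against their GFP+ marrow levels library by library. In leukemic MEP 1 and 2, S100a4 (36.9 and 52.5 FPKM) lay below each GFP+ marrow library (76.1 to 83.7). S100a6 (112 and 83.4 FPKM) lay within their range (91.5 to 132) in replicate 1 and below it in replicate 2. In leukemic MEP 1, 2 and 3, S100a6 was at 96.3, 71.9 and 129% of the GFP+ marrow mean and S100a4 at 46.3, 65.8 and 151%, where the neutrophil list was at 1.07, 1.37 and 116% and the monocyte and macrophage list at 4.55, 4.35 and 170%. Other lists were higher in replicates 1 and 2: the basophil and mast cell list was at 155 and 284% of the GFP+ marrow mean, the B cell list at 84.2 and 32.7%, the T and NK cell list at 60.9 and 43.1%, the erythroid list at 477 and 421% and the megakaryocyte list at 1599 and 1311%. Against control MEP the erythroid list was lower in leukemic MEP, at 405 to 1325 against 6723 to 8081 FPKM, and the other lists were higher. The megakaryocyte list summed to 299 to 5685 FPKM in leukemic against 9.75 to 124 in control MEP, with Gp6 at 0 in the leukemic group, and the monocyte and macrophage list to 38.4 to 1506 against 4.04 to 9.94. The 5 basophil and mast cell markers summed to 4.70 to 8.68 FPKM in the control group and to 281 to 678 in the leukemic group. For the T and NK cell list the sums were 16.4 to 88.4 FPKM in control and 381 to 597 in leukemic MEP, with Cd3g and Cd8a at 0 in both groups and Cd3e and Cd3d at 0 in the control group. For the 6 B cell markers they were 2.07 to 4.79 and 30.3 to 77.8 FPKM, with Pax5 at 0 in both. The B cell marker Cd79a did not follow the sum. It was at 0.243, 1.11 and 0.105 FPKM in control MEP and at 0, 0.0922 and 1.26 in leukemic MEP, against a GFP+ marrow mean of 3.11. The part of these cell types in the rises of S100a4 and S100a6 was not tested.

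**Figure D2:**
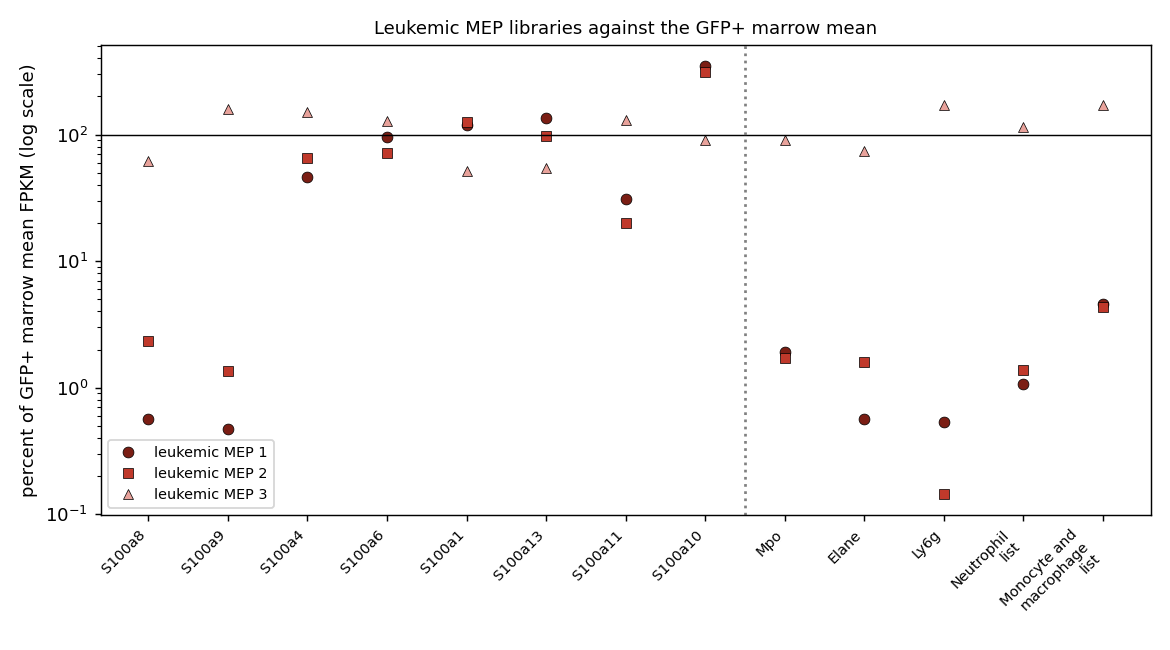
Level of each S100 gene, of 3 neutrophil genes and of 2 marker lists in the 3 leukemic MEP libraries, as a percentage of the GFP+ marrow mean (vertical axis, log scale; the solid line is 100%). S100a8 and S100a9 fall with the neutrophil markers in replicates 1 and 2, S100a6, S100a1 and S100a13 lie between 51.3 and 134% in all 3, and S100a10 lies at 348 and 312% in replicates 1 and 2.

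S100a1 and S100a13, which start back to back, rose in leukemic MEP and kept a near-constant ratio. S100a1 was at 30.6, 75.9 and 54.1 FPKM in control MEP, at 378, 402 and 163 in leukemic MEP, at 108, 141 and 141 in control marrow and at 304, 336 and 316 in GFP+ marrow. S100a13 was at 9.16, 28.2 and 14.5 FPKM in control MEP, at 127, 91.2 and 51.5 in leukemic MEP, at 33.5, 47.7 and 41.7 in control marrow and at 102, 92.0 and 89.4 in GFP+ marrow. For both genes the Prdm16s libraries lay above the matching controls without overlap, and leukemic MEP 3 was the lowest leukemic MEP library. S100a1 rose by 2.52 ± 0.36 (limma, adjusted p = 0.000425) and S100a13 by 2.36 ± 0.38 (adjusted p = 0.00078) in MEP, and both were called in all 20 alternatives. Without leukemic MEP 3 the differences were 2.93 (adjusted p = 1.87e-05) and 2.71 (adjusted p = 0.000131). The marrow rise of S100a1, 1.30 ± 0.36, lay close to the threshold (adjusted p = 0.0451) and was called in 10 of 20 alternatives, with adjusted p-values up to 0.160 (without control marrow 1). The marrow difference of S100a13, 1.20 ± 0.38, did not pass (adjusted p = 0.0715), and it passed in 7 of 20 alternatives, among them the fit without leukemic MEP 3 (adjusted p = 0.0194).

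The FPKM of S100a1 was 2.69 to 4.40 times that of S100a13 over the 12 libraries (median 3.28), a 1.64-fold range, while the levels themselves ranged 13.1-fold and 13.9-fold. Pearson's r of their log2 levels was 0.988 over the 12 libraries. The other adjacent pairs had wider ranges of their ratio: r was 0.993 for S100a8 and S100a9 with a ratio from 1.95 to 8.54, 0.971 for S100a6 and S100a4 with a ratio from 0.555 to 3.12, and -0.03 for S100a10 and S100a11 with a ratio from 0.492 to 16. These are descriptions over libraries that share their group, and the group differences above enter each r. S100a6 had 2.71 to 3.12 times the FPKM of S100a4 in control marrow and 1.20 to 1.66 times in GFP+ marrow, without overlap. S100a10 had 14.2 to 16 times the FPKM of S100a11 in control MEP, 7.92 and 10.9 times in leukemic MEP 1 and 2, and 0.492 to 1.69 times in leukemic MEP 3 and the marrow libraries.

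**Figure D3:**
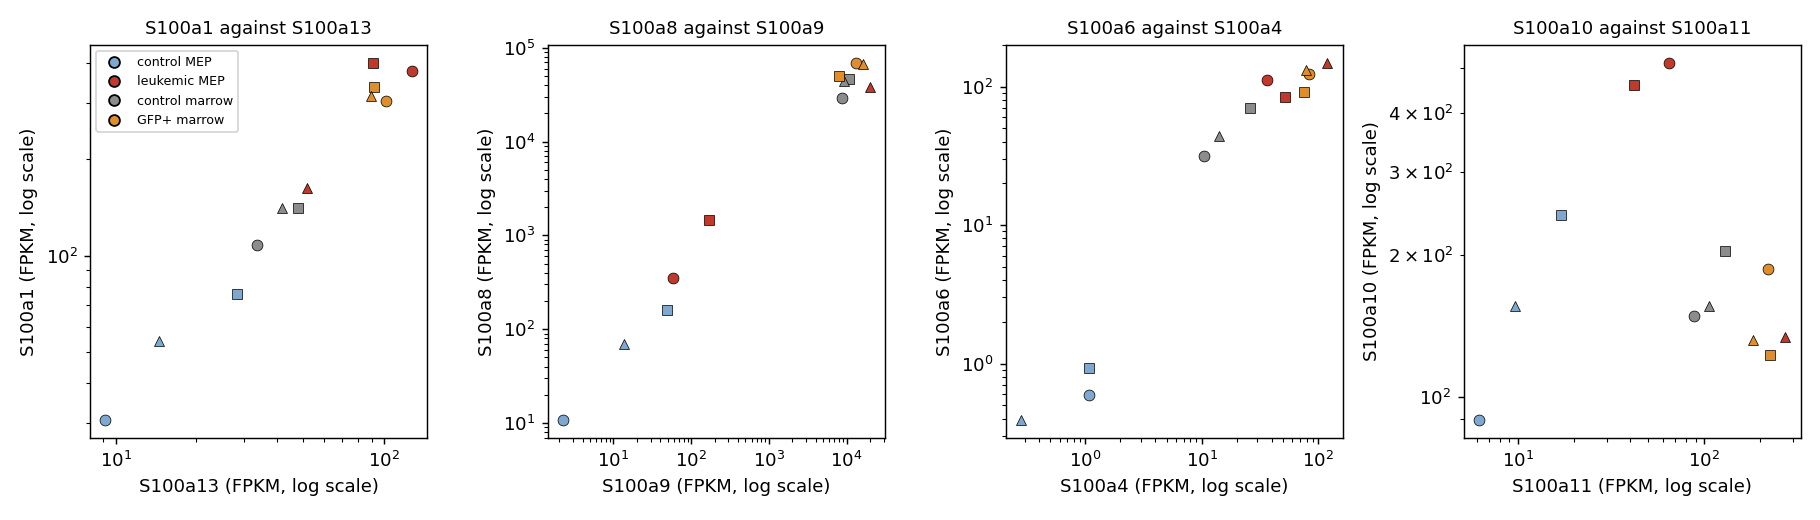
Levels of neighbouring S100 genes against each other in 12 libraries (FPKM, log scales; colours mark the groups, and circle, square and triangle mark replicates 1, 2 and 3). S100a1 keeps 2.69 to 4.40 times the level of S100a13 throughout, whereas S100a10 and S100a11 do not follow each other (ratio 0.492 to 16).

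S100a11, a partner of annexin A1, was at 6.18, 17.1 and 9.70 FPKM in control MEP, at 64.7, 42.2 and 272 in leukemic MEP, at 87.9, 130 and 106 in control marrow and at 220, 226 and 183 in GFP+ marrow. Leukemic MEP 3 was the highest of the 12 libraries, and the Prdm16s groups did not overlap their controls. In MEP its level rose by 3.04 ± 0.54 (limma, adjusted p = 0.00167, called in all 20 alternatives), and by 2.26 without leukemic MEP 3 (adjusted p = 0.000376). In marrow the difference of 0.96 ± 0.54 did not pass (adjusted p = 0.313), but it did without leukemic MEP 3 (adjusted p = 0.0418), a library outside that contrast that enters its shared spread.

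S100a10, the partner of annexin A2, had the flattest profile of the 8, with a 5.75-fold range over the 12 libraries. It was at 89.2, 243 and 156 FPKM in control MEP, at 512, 459 and 134 in leukemic MEP, at 148, 204 and 156 in control marrow and at 187, 123 and 132 in GFP+ marrow. Leukemic MEP 1 and 2 were the highest of all libraries and leukemic MEP 3 lay within the range of control MEP. The difference in MEP was 1.07 ± 0.47 and did not pass (limma, adjusted p = 0.117), but without leukemic MEP 3 it was 1.69 and passed (adjusted p = 0.00316). In marrow it was -0.21 ± 0.47 (adjusted p = 0.838).

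Over the family, 7 of 8 members rose in leukemic against control MEP and none fell, where 13.7% of all tested genes rose. The median difference of the 8 was 4.10 log2 units, against 0.02 for all tested genes. For 7 of 8 members the leukemic MEP libraries lay above the control MEP libraries without overlap, as they did for 21.1% of all genes. In marrow 3 of 8 rose (S100a1, S100a4 and S100a6) and none fell, where 3.02% of genes rose. The marrow count was 5 with the 2 groups fitted alone and 1 to 5 in fits without 1 library, with 1 member called without control marrow 1, control marrow 3, GFP+ marrow 1 or GFP+ marrow 3, and 5 without leukemic MEP 3. The marrow groups did not overlap for 6 members, all but S100a9 and S100a10, against 17.6% of genes. The median marrow difference of the 8 was 1.08, against -0.05 for all genes.

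**Figure D4:**
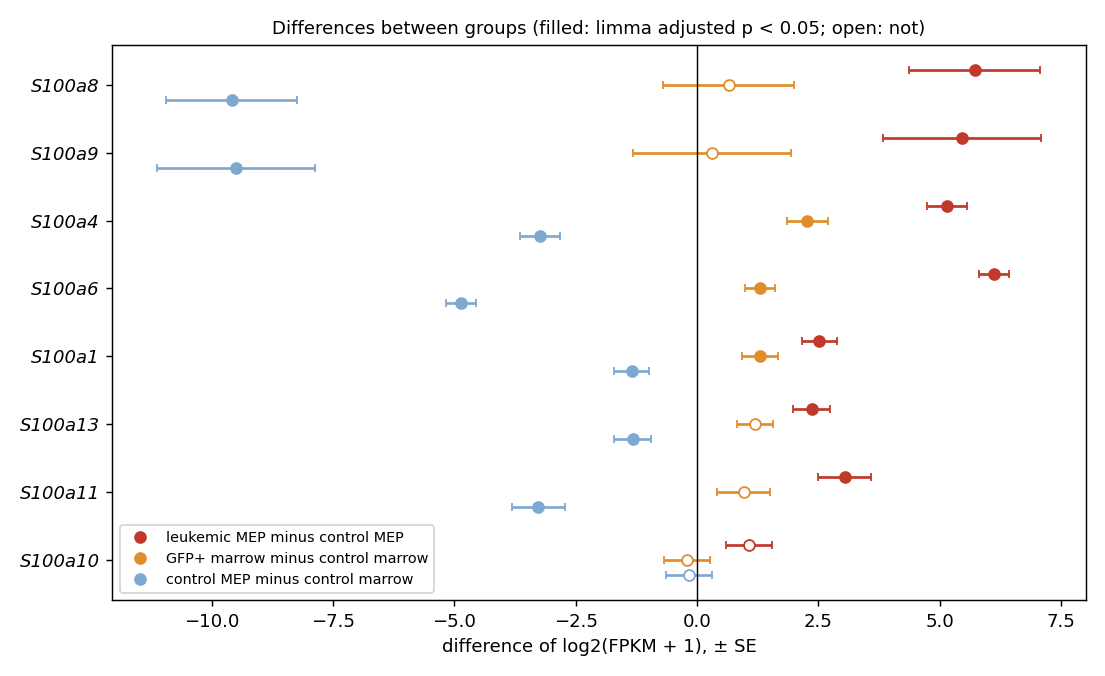
Differences of log2(FPKM + 1) ± SE (horizontal axis) of the 8 S100 genes in 3 comparisons; filled points passed limma's adjusted p of 0.05 over all genes and open points did not. All members but S100a10 are filled to the right for leukemic against control MEP and to the left for control MEP against control marrow; the first and last comparison share the control MEP libraries.

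Normal MEP and normal marrow were compared to set the baseline of the family. All members but S100a10 were lower in control MEP than in control marrow, 7 of 8, where 12.3% of all tested genes were lower. For the same 7 the groups did not overlap (26.1% of genes). The log2 difference was -9.58 ± 1.35 for S100a8 (limma, adjusted p = 0.000418), -9.50 ± 1.63 for S100a9 (adjusted p = 0.00169) and -4.85 ± 0.31 for S100a6 (adjusted p = 1.77e-06). It was -3.27 ± 0.54 for S100a11 (adjusted p = 0.00132) and -3.24 ± 0.42 for S100a4 (adjusted p = 0.00021). S100a1 and S100a13 differed by -1.34 ± 0.36 (adjusted p = 0.0258) and -1.32 ± 0.38 (adjusted p = 0.0327), and these calls were kept in 15 and 14 of 20 alternatives. S100a10 differed by -0.16 ± 0.47 (adjusted p = 0.877). In control MEP the order of mean levels was S100a10 (163 ± 77.0 FPKM), S100a8 (79.9 ± 75.2), S100a1 (53.5 ± 22.7), S100a9 (21.4 ± 24.0), S100a13 (17.3 ± 9.84), S100a11 (11 ± 5.56), S100a4 (0.811 ± 0.460) and S100a6 (0.640 ± 0.276; SD, n = 3). The library ranges of neighbours in this order overlapped, except that S100a11 stood above S100a4.

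In control marrow the order was S100a8 (39780 ± 9320 FPKM), S100a9 (9628 ± 1069), S100a10 (169 ± 30.1), S100a1 (130 ± 19.1), S100a11 (108 ± 21.1), S100a6 (48.5 ± 19.8), S100a13 (41.0 ± 7.13) and S100a4 (16.8 ± 8.13; SD, n = 3). There the ranges of S100a1 and S100a11 overlapped, as did those of S100a6 and S100a13, and the other neighbours did not overlap. In GFP+ marrow S100a8 (61936 ± 10589 FPKM) and S100a9 (12404 ± 4175) again came first, followed by S100a1 (318 ± 16.3), S100a11 (210 ± 23.2), S100a10 (147 ± 34.6), S100a6 (116 ± 21.6), S100a13 (94.4 ± 6.59) and S100a4 (79.8 ± 3.82; SD, n = 3). S100a10 thus stood above S100a1 and S100a11 in control marrow and below both in GFP+ marrow, where its range overlapped those of S100a11 and S100a6. In leukemic MEP the means were 13455 ± 21759 FPKM for S100a8, 6675 ± 11365 for S100a9, 368 ± 205 for S100a10, 314 ± 131 for S100a1, 126 ± 127 for S100a11, 115 ± 32.9 for S100a6, 89.9 ± 37.8 for S100a13 and 70.1 ± 44.6 for S100a4 (SD, n = 3). All neighbours in that order overlapped.

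Leukemic MEP were set against GFP+ marrow, which shares the Prdm16s label. No member passed the test (0 of 8), where 3.05% of all genes did. At an unadjusted p under 0.05, 4 members differed, S100a8, S100a9, S100a10 and S100a11, and these 4 were called by voom and without leukemic MEP 3, with array weights calling 5. Without that library the difference was -6.43 for S100a8 (limma, adjusted p = 0.000187), -6.89 for S100a9 (adjusted p = 8.16e-05), -1.98 for S100a11 (adjusted p = 0.00117) and 1.74 for S100a10 (adjusted p = 0.00346). With it the differences were -4.51, -4.35, -1.19 and 1.12. The groups did not overlap for S100a8, 1 of 8 members lower in all leukemic MEP libraries, against 8.3% of all genes. S100a1 (-0.12), S100a6 (-0.04), S100a4 (-0.36) and S100a13 (-0.16) had adjusted p-values from 0.691 to 0.965. With that library left out these 4 differences were 0.29, -0.24, -0.84 and 0.19, with adjusted p-values from 0.131 to 0.781.

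Together the 8 genes held 0.038 to 0.113% of each control MEP library's total FPKM, 0.385, 0.655 and 12.2% of leukemic MEP libraries 1, 2 and 3, 8.13 to 10.9% in control marrow and 10.3 to 13.8% in GFP+ marrow. S100a8 and S100a9 made up 98.4 to 99.1% of the family's FPKM in marrow and 8.64 to 36.3% in control MEP. Without them the remaining 6 genes held 0.0347 to 0.0722% in control MEP, 0.184 to 0.290% in leukemic MEP, 0.0892 to 0.117% in control marrow and 0.15 to 0.168% in GFP+ marrow. As a share of total FPKM, these 6 genes thus lay higher in leukemic MEP than in each marrow library, GFP+ marrow included. In summed FPKM they did not: leukemic MEP 1, 2 and 3 had 1231, 1130 and 891, and GFP+ marrow libraries 932 to 1020.

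Most other S100 genes were near silent. Of 11 further family names, 10 were in the table, and 2 of those were tested, S100a5 and S100pbp (an S100-binding protein), of which limma called 0 in each of the 5 comparisons. At an unadjusted p under 0.05, S100pbp was higher in GFP+ than in control marrow, and S100a5, chosen after its values were seen, was called higher in leukemic MEP by voom and without leukemic MEP 3. The other 8 reached at most 2.24 FPKM in any library (S100g).

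Several genes for S100 partners inside cells changed in leukemic MEP. Of 10 tested partners 4 rose and 1 fell in leukemic against control MEP, where 13.7% of all tested genes rose and 12.3% fell. The counts were 3 and 2 without leukemic MEP 3. Anxa1, the partner of S100a11, went from 6.59 ± 1.29 to 244 ± 226 FPKM (SD, n = 3; log2 difference 4.64, limma adjusted p = 5.02e-05) and Anxa2, the partner of S100a10, from 5.06 ± 0.463 to 70.8 ± 76.3 (3.02, adjusted p = 0.00135). The differences were 3.92 for Anxa1 (limma, adjusted p = 3.42e-06) and 2.17 for Anxa2 (adjusted p = 9.32e-06) without that library. Myh9, a nonmuscle myosin that S100a4 binds, rose by 1.09 (limma, adjusted p = 0.0384), while Cacybp, the calcyclin-binding protein gene, fell by 1.35 (adjusted p = 0.00328). The Myh9 call was lost without it (0.63, adjusted p = 0.0832), where Cacybp fell by 1.11 (adjusted p = 0.00513). In marrow limma called 0 of 10, with 1 higher and 1 lower at an unadjusted p under 0.05 and likewise 1 and 1 by voom. Without leukemic MEP 3, which enters the shared spread, limma called 1 higher and 1 lower there. The change of Anxa1 was larger in MEP than in marrow by 5.73 (limma interaction, adjusted p = 0.000964; 5.02 and 5.02e-05 without leukemic MEP 3), and its level in control marrow was 1380 ± 313 FPKM.

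Of 9 tested receptors reported for secreted S100 proteins, 1 rose and 2 fell in leukemic against control MEP, near the 13.7% and 12.3% of all tested genes. The counts were 1 and 3 without leukemic MEP 3. Emb, the embigin gene, went from 0.551 ± 0.157 to 77.5 ± 104 FPKM (SD, n = 3; log2 difference 4.73, limma adjusted p = 0.000473), with a larger change in MEP than in marrow (difference 4.0, adjusted p = 0.0378). These values were 3.59 (limma, adjusted p = 1.69e-06) and 2.86 (adjusted p = 0.000324) without leukemic MEP 3. Bsg, the related basigin gene, fell by 1.09 (adjusted p = 0.00519) and the scavenger receptor gene Cd36 fell by 1.77 (adjusted p = 0.0103). Without that library Bsg fell by 0.87 (adjusted p = 0.00617) and Cd36 fell by 1.55 (adjusted p = 0.024). Ager, the gene of the receptor RAGE, and Tlr4 were called in none of the 5 comparisons with all libraries, and Ager was at 3.75 FPKM at most. Without leukemic MEP 3, Tlr4 was higher in GFP+ than in control marrow (1.07, limma adjusted p = 0.0293). It was then lower in control MEP than in control marrow (-1.92, adjusted p = 0.000496). Leukemic MEP likewise lay below GFP+ marrow for Tlr4 (-2.45, adjusted p = 0.000274). In marrow limma called 0 of 9 receptors, 1 was lower at an unadjusted p under 0.05 and voom called 1 lower. Without leukemic MEP 3, which enters the shared spread, limma called 2 higher and 1 lower there. Between the control groups 4 were lower in MEP (Emb, Cd14, Ly96 and Alcam).

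Among 13 other EF-hand genes 4 rose and 1 fell in leukemic against control MEP, where 13.7% of all tested genes rose and 12.3% fell. The counts were 3 and 1 without leukemic MEP 3. Lcp1, the actin-bundling plastin of blood cells, rose by 3.61 (limma, adjusted p = 0.000625), the calcium sensor gene Stim1 by 1.35 (adjusted p = 0.0231), Efhd2 by 1.0 (adjusted p = 0.0344) and the calpain subunit gene Capns1 by 0.79 (adjusted p = 0.0417). Calm3, a calmodulin gene, fell by 0.63 (adjusted p = 0.0466). In the fit without that library Lcp1 rose by 2.83 (limma, adjusted p = 0.00014), Stim1 by 0.78 (adjusted p = 0.0241) and Calm3 fell by 0.78 (adjusted p = 0.0126), while Efhd2 (0.59, adjusted p = 0.0726) and Capns1 (0.76, adjusted p = 0.0649) did not pass. In marrow limma called 0 of 13, with 3 higher at an unadjusted p under 0.05 and 1 higher by voom. Without leukemic MEP 3, which enters the shared spread, limma called 2 higher and 0 lower there. The lists of partners, receptors and EF-hand genes had median MEP differences of 0.82, 0.57 and 0.56, against 4.10 for the 8 S100 members and 0.02 for all genes.

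The genes whose log2 levels were most like those of each member over the 12 libraries (highest Pearson r among 6754 tested genes with a group mean of at least 10 FPKM, the 8 members themselves left out) are named here for each in turn. S100a8 was most like the neutrophil granule genes Elane (r = 0.996), Mpo (0.992) and Ctsg (0.988), and S100a9 most like Elane (0.995), Fcnb (0.994) and Mpo (0.990). S100a11 was most like Prtn3 (0.989), another granule protease gene, Tyrobp (0.987) and Plac8 (0.986). S100a4 was most like F10 (0.981), Cytip (0.978) and Maged2 (0.977), and S100a6 most like Ffar2 (0.989), Tnfaip8l2 (0.983) and 9030619P08Rik (0.982). S100a1 and S100a13 shared Ifitm3 (0.979 and 0.977), followed by Pim2 (0.968) and Lxn (0.966) for S100a1, and S100a13 was also near Mc5r (0.977) and Clic1 (0.973). S100a10 was most like Crip1 (0.975), A930005H10Rik (0.945) and Lockd (0.935). With leukemic MEP 3 left out the 24 values of r lay between 0.945 and 0.996 over the other 11 libraries. All of these points share the 4 groups, so a high r reflects a shared order of group levels.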

How the data were processed

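FPKM values of 24107 mouse genes in 12 libraries were used as the authors deposited them. The submitters' processing notes name CASAVA, bcl2fastq, the aligner STAR 2.5.3a, DESeq2 1.18.1 and the build mm10. No annotation or read counter is named there. Per the labels' protocols, sorted cells went through Smart-seq2 and Nextera XT. Whole reads were recovered for 16728 of the 16728 genes above 0 (tolerance 0.02), and 7379 genes were at 0. The scaling behind the FPKM values equalled size factors, each the median over genes of a library's reads relative to their mean over libraries. It did not follow total reads, and summed FPKM ran from 393786 (control MEP 1) to 622546 (GFP+ marrow 3).

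The main test was limma-trend (R 4.3.3, limma 3.58.1) on log2(FPKM + 1), with the 12 libraries fitted together (8 residual degrees of freedom) and all genes adjusted together. It was also run on simulated reads with the same spread for all genes and libraries. Those data held no library unlike its group, as leukemic MEP 3 was, so they cannot vouch for the test here. Alternatives were a pseudocount of 0.1, no filter, equal total FPKM, quantile normalization, the 2 groups alone, array weights, a replicate block, voom on the recovered reads, and 12 fits without 1 library. The fit without leukemic MEP 3 was extended to the other lists after seeing the data. All 8 members were named in every comparison, and of other lists at most the 4 called members with the smallest p in each direction. Members and lists were chosen with earlier results of these data known. Promoter motifs and figures were made with Python 3.11.15. Positions are RefSeq spans, GRCm38. Promoter windows of S100a4 and S100a10 were not used here, and 1 called partner gene is not reported here by name.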

Additional observations from a re-analysis of the deposited data

Results flagged for a closer look

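The changes of 2 members differed between the populations by limma's interaction test. The rise of S100a4 was 2.87 log2 units larger in MEP than in marrow, and that of S100a6 was 4.82 units larger. In the 3 libraries of control MEP, 10 reads in all fell on S100a4 and 11 on S100a6.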

How the results depend on the processing

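Of 792 alternative fits of the 40 member results (8 genes in 5 comparisons), 707 kept direction and side of the threshold, 34 passed where the main one had not, 33 no longer passed and 18 changed sign. The cause was not tested, except that array weights give leukemic MEP 3 a weight of 0.0971 and fits without a library use fewer samples. The count of called members was 5 in MEP with the 2 groups alone and 6 to 8 there without 1 library, and 5 to 7 for control MEP against control marrow without 1 library. For marrow it was 5 with the 2 groups alone, 5 with array weights and 1 to 5 without 1 library. For leukemic MEP against GFP+ marrow it was 5 with array weights, 4 with voom and 0 to 4 without 1 library. For the difference of changes it was 1 with quantile normalization, 6 with array weights and 1 to 4 without 1 library. The log2 ratio of S100a8 to S100a9 differed by -0.18 to 0.89 in MEP without 1 library (-0.18 without leukemic MEP 2) and by 0.20 to 0.51 in marrow.

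Sign changes were confined to differences that did not pass in the reported test. In marrow S100a9 was at -0.28 with quantile normalization. Between the controls S100a10 was at 0.016 with equal total FPKM and 0.21 without control MEP 1 (-0.50 to 0.21 without 1 library). Between leukemic MEP and GFP+ marrow, equal total FPKM gave 0.31 for S100a1, 0.070 for S100a4, 0.40 for S100a6 and 0.28 for S100a13, quantile normalization gave 0.19 for S100a1 and 0.17 for S100a6, array weights gave 0.26 for S100a1 and 0.28 for S100a13, and voom gave 0.13 and 0.12. Without leukemic MEP 3 it was 0.29 for S100a1 and 0.19 for S100a13. S100a6 was at 0.17 without leukemic MEP 2, 0.02 without GFP+ marrow 1 and 0.07 without GFP+ marrow 3. Without 1 library the ranges were -0.35 to 0.29 for S100a1, -0.24 to 0.17 for S100a6 and -0.45 to 0.19 for S100a13.

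Over all genes, 2976 were called in MEP (1698 with the 2 groups alone, 6151 with array weights, 1916 without control MEP 3), and 1037 in marrow (1769, 3453, voom 1906, 388 to 2126 without 1 library). Between the controls 1716 were called (3641 with the 2 groups alone, 5511 with array weights, 2731 with voom, 944 to 2780 without 1 library). Leukemic MEP and GFP+ marrow differed in 350 genes (0 with the 2 groups alone, 3285 with array weights, 643 with equal total FPKM, 205 without the filter, 225 with a pseudocount of 0.1, 194 with quantile normalization, 1780 with voom, 46 to 1760 without 1 library). The difference of changes held for 560 (2966 with array weights, 890 with voom, 213 to 1075 without 1 library). Equal total FPKM moved the median of all genes by -0.20 in marrow, 0.15 between the controls, 0.36 between the Prdm16s groups and 0.21 for the difference of changes, and quantile normalization by -0.12 in MEP, 0.23 between the controls and -0.18 for the difference. Higher and lower calls were 346 and 691 in marrow (195 and 853 with equal totals), 302 and 1414 between the controls (594 and 1326 with equal totals, 724 and 1084 with quantiles), 112 and 238 between the Prdm16s groups (510 and 133 with equal totals, 83 and 111 with quantiles) and 518 and 42 for the difference (312 and 72 with quantiles).

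Deviations of same-numbered libraries from their group means had r of 0.50, 0.29 and 0.073 between the control groups, 0.086, 0.22 and 0.15 between the Prdm16s groups and -0.16 to 0.020 across the contrasts in MEP and in marrow. In none of the 4 comparisons did all 3 pairs exceed 0.1, so the numbers were not treated as pairs. Same-numbered libraries of the Prdm16s groups did share their Xist and Ddx3y pattern, and whether they share an origin was not tested. With a replicate block the members called were 7, 3, 7, 0 and 2 in the 5 comparisons, as without it.

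The 571690 reads of leukemic MEP 3 put 22 to 64 reads on S100a13, S100a4, S100a10, S100a1 and S100a6, and 1 to 5 reads lie behind each control MEP value of S100a4 and S100a6.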

Other observations

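Genes beside the S100 block on chromosome 3 were looked at after values were seen. Ilf2, a double-stranded RNA binding factor gene, fell by 0.60 ± 0.16 log2 units in leukemic against control MEP (limma, adjusted p = 0.0166), from 51.5 to 33.6 FPKM on average. Snapin (0.28 ± 0.31, adjusted p = 0.54) and Chtop (-0.18 ± 0.18, adjusted p = 0.491) did not pass there. None of the 3 passed in marrow, with adjusted p-values of 0.777, 0.532 and 0.552.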
